A study of Mus musculus with 8 samples.

Results

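The ID and TWIST genes, which encode helix-loop-helix proteins that interfere with or replace the action of other factors of that class, were examined in mouse calvarial osteoblasts treated with parathyroid hormone (PTH). The members were the 6 rows of the deposited gene count table that carry the symbols Id1, Id2, Id3, Id4, Twist1 and Twist2, of 47706 rows in all. The rows were taken by symbol, with no threshold on a measured value, but the gene families were picked with earlier results of these data known. RNA sequencing was performed on 8 samples of primary calvarial osteoblasts, bone-forming cells isolated from the mouse skullcap, 4 given PTH and 4 given vehicle for 24 hours after 7 days of differentiation. All samples are titled Con, which the labels do not explain, and no allele or genotype is given for them. The labels name the differentiation as adipogenic, whereas the methods describe osteogenic medium followed by serum starvation, which both treatments shared. The methods give a micromolar PTH dose for these cultures and a nanomolar one for stromal cell cultures. Neither source says whether the samples of a treatment were separate cultures or cell preparations. The p-values therefore set the difference between treatments against the spread between these samples, which may be technical.

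Basic helix-loop-helix (bHLH) transcription factors bind DNA as dimers at a short sequence called the E-box, and E proteins are the widely expressed partners in these dimers. ID proteins have the dimerization domain but lack the basic region that contacts DNA, so they hold E proteins in pairs that cannot bind, and several ID genes are classic targets of bone morphogenetic protein (BMP) signalling. TWIST proteins do bind DNA, keep mesenchymal cells undifferentiated and hold back RUNX2, the transcription factor that commits cells to the osteoblast lineage. Loss of a TWIST1 copy causes early fusion of the skull sutures, and TWIST1 and the E proteins form the dimers that ID proteins compete with.

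Sequencing depth ran from 33605610 to 56090654 counts per sample. The first principal component, with 62.83% of the variance, separated the treatments. Tnfsf11, which encodes RANKL, a well-known target of PTH, rose from 1.42 ± 0.365 to 127.5 ± 20.01 CPM, the count per 1000000 counts of the normalized library (mean ± SD, n = 4) and so followed the treatment labels. The osteoblast marker genes examined below were all detected in every sample, at widely differing levels. They ran from Col1a1, at means of 44360 CPM with vehicle and 48170 CPM with PTH, down to Dmp1, at 18.05 and 8.27 CPM.

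All 6 members are protein-coding genes, and each was a single entry that shared its assembled locus with no other symbol. In the GENCODE M21 annotation of GRCm38, Id1 lies at chr2:152736251-152737410 on the plus strand, Id2 at chr12:25093799-25097140 on the minus strand, Id3 at chr4:136143497-136145755 on the plus strand and Id4 at chr13:48261228-48266026 on the plus strand. Twist1 lies at chr12:33957671-33959829 and Twist2 at chr1:91801461-91848028, both on the plus strand. All are compact genes of 1160 to 4799 bases apart from Twist2, which spans 46568 bases because of a long intron. Twist2 shares 1468 transcript bases with Gm29100 on the opposite strand, and Id4 shares 110 with Gm49291. The exons of Id4 also overlap those of A330033J07Rik, an antisense gene with an entry of its own. Whether counting used strand is not given in the sources used here, so reads of such partners cannot be told apart. The separate entry of Gm29100 held 10 to 39 counts per sample against 314 to 760 for Twist2. The entry of A330033J07Rik held 3 to 28 counts per sample, and Gm49291 had no entry.

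The 250 bases before the annotated start of the TWIST genes, which moved in opposite directions in these samples, are printed from RefSeq (GRCm38.p6), 5′ to 3′ on the plus strand. Capitals mark 2 of the motifs searched, a TATA box (TATAAA) and a cyclic AMP response element (CRE) half-site (TGACG, here on the minus strand and so read as CGTCA), and the windows cover chr12:33957421-33957670 for Twist1 and chr1:91801211-91801460 for Twist2.
Twist1: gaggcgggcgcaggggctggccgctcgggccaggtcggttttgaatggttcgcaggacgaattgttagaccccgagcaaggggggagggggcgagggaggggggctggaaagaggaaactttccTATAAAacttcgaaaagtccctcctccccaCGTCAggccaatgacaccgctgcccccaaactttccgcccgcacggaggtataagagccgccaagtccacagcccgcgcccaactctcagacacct
Twist2: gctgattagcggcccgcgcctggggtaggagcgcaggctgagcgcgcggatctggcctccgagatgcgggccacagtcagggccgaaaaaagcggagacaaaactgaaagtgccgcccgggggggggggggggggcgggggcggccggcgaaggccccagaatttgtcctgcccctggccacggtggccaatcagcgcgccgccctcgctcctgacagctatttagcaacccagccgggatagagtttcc

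The Twist1 window has a GC content of 62.4% and the Twist2 window 68.8%. The CRE is the site of CREB, a factor that acts downstream of the PTH receptor through cyclic AMP. The full CRE (TGACGTCA), its half-site, the E-box (CANNTG) and the TATA box were searched on both strands, and every full CRE also holds the half-site. They were present in 1.55%, 17.8%, 66.2% and 12.4%, respectively, of 32851 windows of the same length. None of the 5 matched members held a full CRE in its window. Half-sites stood 170 to 166 bases before the start of Id3, 229 to 225 before Id4 and 96 to 92 before Twist1. The TATA box of Twist1 stood 126 to 121 bases before its start, and Id2 held an E-box (CAGCTG) 196 to 191 bases before its own. The Twist2 window held none of the 4 motifs. These matches are descriptions of the letters in the windows, and Id1 was not among the matched genes.

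Expression of 5 of the 6 members differed between PTH and vehicle, with 3 upregulated (Id2, Id3 and Twist2) and 2 downregulated (Id1 and Twist1). Within each family, members moved in opposite directions. Calls were frequent in this comparison, since 45.8% of the 16736 genes tested were differentially expressed at an adjusted p under 0.05, 23.3% upward and 22.5% downward, so the count of members called is described here and not read as particular to them. All 6 members passed the filter on low counts. For the same 5 members the samples of the treatments did not overlap in CPM, which was the case for 43.0% of all genes tested, 21.2% with PTH above vehicle and 21.8% with PTH below.

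**Figure D1:**
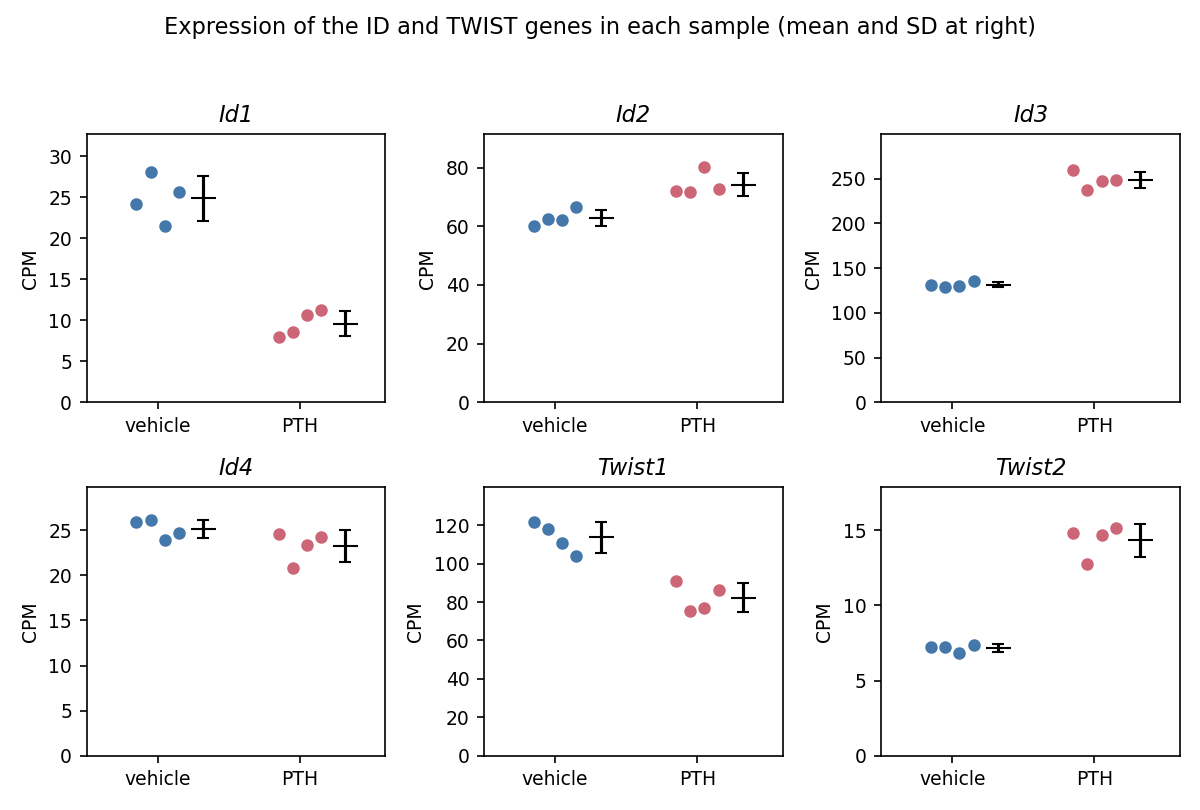
CPM (vertical axis from 0) of the 6 members, 1 point per sample, with the mean and SD of the 4 samples of each treatment at its right. The PTH samples lie below all vehicle samples for Id1 and Twist1, above them for Id2, Id3 and Twist2, and among them for Id4.

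Id1, an inhibitor induced directly by BMP signals in many cell types, fell the most. Its level was 24.3, 28.1, 21.5 and 25.6 CPM in vehicle samples 1 to 4 and 7.94, 8.64, 10.6 and 11.2 CPM in PTH samples 1 to 4. Every PTH sample lay far below the lowest vehicle sample. The mean went from 24.9 ± 2.74 to 9.60 ± 1.57 CPM (SD, n = 4), a log2 fold change of -1.37 ± 0.125 (SE) with a 95% interval from -1.65 to -1.10 and an adjusted p of 2.74e-06 by edgeR's quasi-likelihood F-test. These levels rest on 1031 to 1270 counts per vehicle sample and 287 to 473 per PTH sample.

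Id2, an inhibitor expressed widely in mesenchymal and lymphoid cells, rose by a small amount. The vehicle samples held 59.9, 62.5, 62.1 and 66.5 CPM and the PTH samples 71.9, 71.8, 80.3 and 72.9 CPM. The groups stayed apart, although the highest vehicle sample lay close to the lowest PTH samples. The mean went from 62.8 ± 2.74 to 74.2 ± 4.06 CPM, with a log2 fold change of 0.24 ± 0.0635 with a 95% interval from 0.10 to 0.38 (edgeR, adjusted p = 0.00806).

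Id3, which is often expressed together with Id1 and can stand in for it in development, rose 1.89-fold. The vehicle samples were tightly grouped at 131.1, 129.1, 129.6 and 135.6 CPM, and the PTH samples stood at 259.9, 237.2, 247.8 and 248.5 CPM. The distance between the treatments was many times the spread within either of them. The mean went from 131.3 ± 2.97 to 248.4 ± 9.31 CPM, with a log2 fold change of 0.92 ± 0.0588 with a 95% interval from 0.79 to 1.05 (edgeR, adjusted p = 1.14e-07). By mean CPM, Id3 stood above 95.1% of the genes tested.

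Id4, which is known to favour osteoblast over fat cell differentiation and whose protein interacts with HES factors, did not pass the test. It held 25.9, 26.2, 24.0 and 24.7 CPM in the vehicle samples and 24.6, 20.8, 23.4 and 24.3 CPM in the PTH samples. The treatments overlapped, with only PTH sample 2 well under the rest. The log2 fold change was -0.11 ± 0.0768 with a 95% interval from -0.28 to 0.06 (edgeR, adjusted p = 0.257), so a decrease of up to that lower bound and a slight increase are both within the error.

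Twist1, the TWIST gene that skull development depends on most, fell 1.38-fold. Its level was 121.9, 117.9, 110.7 and 104.0 CPM with vehicle and 90.9, 75.4, 76.7 and 86.1 CPM with PTH. All PTH samples lay under the lowest vehicle sample. The mean went from 113.6 ± 7.93 to 82.3 ± 7.47 CPM, with a log2 fold change of -0.46 ± 0.0785 with a 95% interval from -0.64 to -0.29 (edgeR, adjusted p = 0.000451).

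Twist2, also known as Dermo1, is the close relative of Twist1 found in dermis and early osteoblasts, and it rose 2.01-fold. The vehicle samples held 7.23, 7.21, 6.80 and 7.38 CPM and the PTH samples 14.8, 12.7, 14.7 and 15.2 CPM. The lowest PTH sample was well above the highest vehicle sample. The mean went from 7.16 ± 0.247 to 14.4 ± 1.10 CPM, with a log2 fold change of 1.0 ± 0.0946 with a 95% interval from 0.80 to 1.21 (edgeR, adjusted p = 3.67e-06). By mean CPM over all samples Twist2 stood above 42.6% of the genes tested, and its CPM was the lowest of the members with vehicle but not with PTH, where Id1 was lower.

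**Figure D2:**
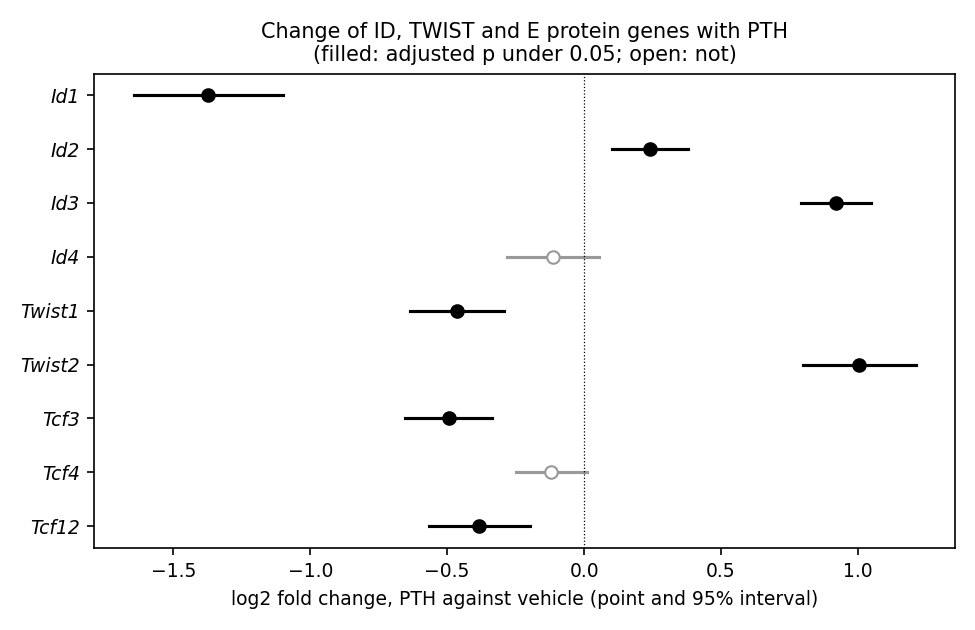
Log2 fold change of PTH against vehicle (horizontal axis) for the 6 members and the 3 E protein genes, with edgeR's estimate as a point and its 95% interval as a bar, filled where the adjusted p is under 0.05. The intervals of Id1 (-1.65 to -1.10) and Twist1 lie below 0, those of Id2, Id3 and Twist2 above 0, and those of Id4 and Tcf4 include 0.

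In exact permutation tests on log2(CPM + 0.1), the 5 members without overlap each gave a two-sided p of 0.0286, the smallest that 4 against 4 samples allow, and Id4 gave an exact permutation p of 0.114. In bulk RNA, fewer cells of a type and less RNA per cell cannot be told apart, and that holds for each of these changes.

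Per kilobase of exon, the levels of the members can be set against each other. With vehicle the order was Id3 at 73.3 ± 1.66 CPM per kb, Twist1 at 69.8 ± 4.87, Id2 at 25.7 ± 1.124, Id1 at 21.4 ± 2.36, Id4 at 6.54 ± 0.268 and Twist2 at 2.25 ± 0.0778 (n = 4). Id3 and Twist1 overlapped in their samples, from 72.1 to 75.7 against 63.9 to 74.9 CPM per kb, and all other neighbours in this order were apart. With PTH the order was Id3 at 138.7 ± 5.20 CPM per kb, Twist1 at 50.5 ± 4.59, Id2 at 30.4 ± 1.67, Id1 at 8.28 ± 1.35, Id4 at 6.04 ± 0.448 and Twist2 at 4.52 ± 0.346, and no neighbours overlapped. The order of the means was thus the same in both treatments, although Id3 and Twist1 could not be ranked with vehicle. With PTH, Id3 moved away from Twist1 and Id1 came close to Id4.

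The levels, and which neighbours overlap, rest on the lengths used. With the longest coding transcript in place of all exons, the order of the means stayed the same in both treatments. Id3 then stood at 102.8 CPM per kb with vehicle, clear of Twist1. With PTH, Twist2 stood at 5.04 to 6.01 CPM per kb, overlapping Id4 at 5.402 to 6.391.

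The make-up of the ID family shifted toward Id3. Id3 supplied 57.7 ± 1.30% of the summed ID transcripts per kilobase with vehicle and 75.6 ± 1.29% with PTH, from 56.0 to 59.0% against 74.2 to 77.3% across samples. Id1 went from 16.9 ± 1.51% to 4.51 ± 0.71%. Id2 went from 20.3 ± 0.593% to 16.6 ± 0.848%, although its own CPM rose, and Id4 from 5.15% to 3.29%. Among the TWIST genes, Twist2 went from 3.14 ± 0.252% to 8.23 ± 0.522%, and Twist1 still supplied 91.8% of the family's sum with PTH. These shares depend on the lengths: by the longest coding transcript, Id3 held 63.2% and 78.9%, and Id1 13.2% and 3.36%.

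**Figure D3:**
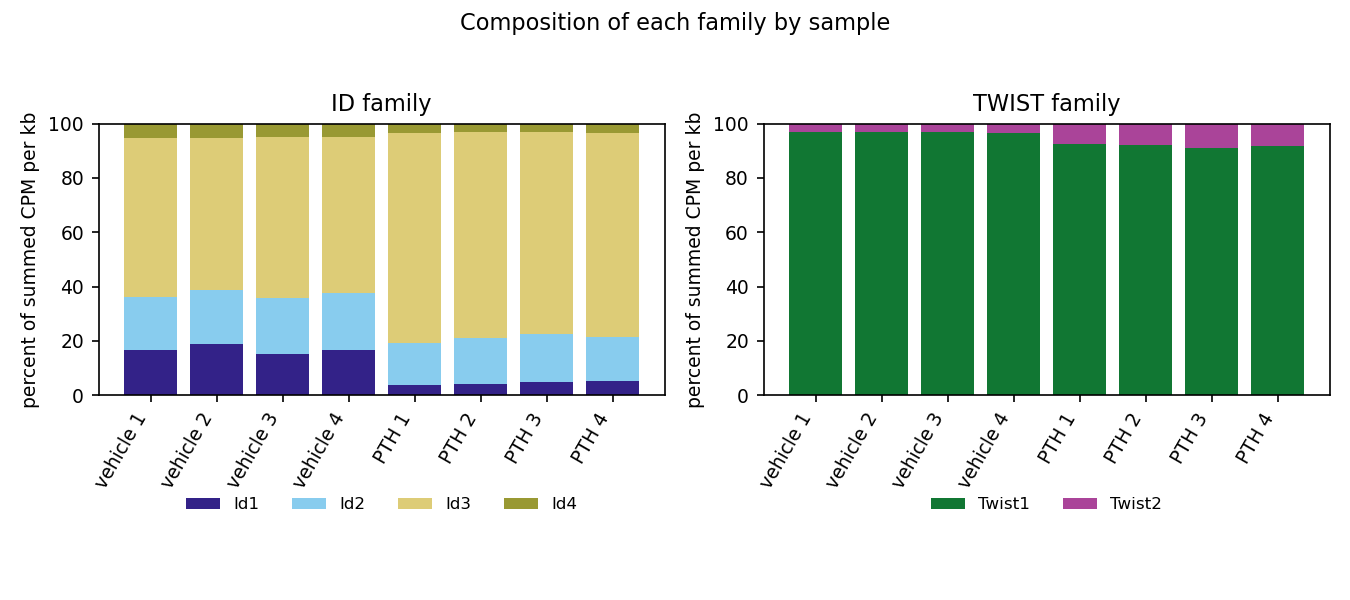
Percent of the summed CPM per kb of exon (vertical axis) supplied by each ID gene (left) and each TWIST gene (right) in each of the 8 samples. Id3 takes 56.0 to 59.0% of the ID sum in the vehicle samples and 74.2 to 77.3% in the PTH samples, and Twist2 goes from 2.95 to 3.51% up to 7.72 to 8.93% of the TWIST sum.

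The summed ID level was higher with PTH, at 183.4 ± 5.95 against 127 ± 3.89 CPM per kb, with samples from 174.7 to 187.9 and from 122.6 to 131.5. The summed TWIST level was lower, at 55.1 ± 4.83 against 72.0 ± 4.87 CPM per kb.

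The change of a ratio between members of a family does not depend on gene length, and it was compared for all 7 pairs. In each pair the samples of the treatments did not overlap, so the members of each pair changed unequally in these samples. Without overlap the two-sided exact permutation p is 0.0286, the smallest that these samples allow. Adjustment over the 7 pairs leaves equal values as they are and adds no support, and pairs that share a gene are not independent. The largest shift was that of Id1 against Id3, whose log2 ratio of CPM went from -2.40 ± 0.159 to -4.69 ± 0.253, a 4.89-fold fall of the ratio. Per sample it was -2.43, -2.20, -2.59 and -2.40 with vehicle and -5.02, -4.76, -4.53 and -4.45 with PTH. The ratio of Id1 to Id2 fell 3.06-fold and that of Id1 to Id4 fell 2.39-fold.

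Id1 and Id4, which were nearly level in CPM with vehicle (a log2 ratio of -0.02), were at a log2 ratio of -1.28 with PTH. These CPM levels are not scaled by length. Per kilobase of exon, Id1 stood above Id4 in both treatments, at 21.4 against 6.54 with vehicle and 8.28 against 6.04 with PTH. Id3 gained on Id4 by 2.05-fold and on Id2 by 1.6-fold, and Id2 gained on Id4 by 1.28-fold, the smallest of these shifts. Twist1 exceeded Twist2 by a log2 ratio of CPM of 4.06, 4.01, 4.005 and 3.80 in the vehicle samples and of 2.61, 2.56, 2.38 and 2.50 in the PTH samples. The mean TWIST ratio went from 3.97 ± 0.115 to 2.51 ± 0.0983 on the log2 scale, a 2.75-fold fall.

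**Figure D4:**
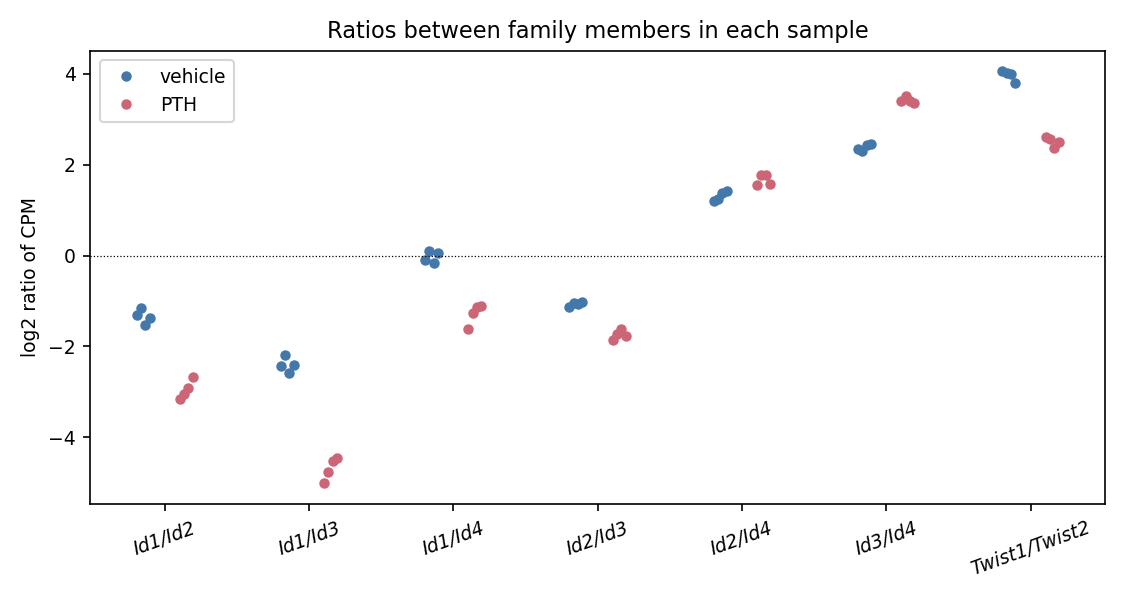
Log2 ratio of CPM (vertical axis) for the 6 pairs of ID genes and for Twist1 against Twist2, 1 point per sample, vehicle at left and PTH at right within each pair. No pair has overlapping treatments, and the shifts run from 0.36 (Id2/Id4) to -2.29 (Id1/Id3) on the log2 scale.

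E proteins are the direct partners of ID proteins, and 2 of the 3 E protein genes were downregulated, beside 22.5% of all genes tested. Tcf3, which encodes E12 and E47, held 94.5, 109.8, 101.4 and 94.0 CPM with vehicle and 72.6, 70.8, 64.8 and 75.4 CPM with PTH. It fell without overlap of the samples, and the log2 fold change was -0.49 ± 0.0723 (edgeR, adjusted p = 0.000149). Tcf12, which encodes HEB and is, like Twist1, a gene of human suture fusion, went from 157.1 ± 8.21 to 120.4 ± 14.1 CPM, with a log2 fold change of -0.38 ± 0.0847 (edgeR, adjusted p = 0.00283). Tcf4, which encodes E2-2, was at 160.8 CPM with vehicle and 147.9 CPM with PTH, with overlapping samples and a log2 fold change of -0.12 (95% interval -0.25 to 0.01, edgeR, adjusted p = 0.12). The E protein genes summed to 40.7 CPM per kb with vehicle and 30.7 with PTH. The ratio of the ID sum to the E protein sum was 3.13 ± 0.227 with vehicle and 5.99 ± 0.366 with PTH, a description of RNA levels that rests on the annotated lengths. Tcf4 and Tcf12 were divided by 27382 and 15529 bases of exon, and the longest ID gene, Id4, by 3849. Without scaling by length, the E protein genes summed to 399.4 to 442.1 CPM with vehicle and 316.2 to 358.5 CPM with PTH, above any single ID gene. That sets a sum against single genes, so it does not rank the ID sum and the E protein sum. The size of the ratio depends on these lengths, and no others were tried for the E proteins.

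Other bHLH genes were described from lists of pathway genes, in which the median log2 fold change is set beside -0.0008 for all genes tested. Counts of called genes in this and each later list stand beside 23.3% of all genes tested called upward and 22.5% downward. They are described and not read as particular to a list. The tissue-restricted class II factors, which pair with E proteins, were seldom detected well enough to test: 8 of the 42 listed passed the filter on low counts, and 18 had no count in any sample. Of these 8, 1 rose and 2 fell, with a median of -0.37. Atoh8, a BMP-responsive factor, stood at 33.2 CPM with vehicle and was higher with PTH at 51.4 CPM (log2 fold change 0.63, edgeR adjusted p = 5.35e-05). Scx, the tendon factor scleraxis, was lower with PTH, at 19.7 against 32.4 CPM (-0.72 on the log2 scale, edgeR adjusted p = 0.000246). Bhlha15, the secretory cell factor MIST1, fell from 46 to 89 counts per vehicle sample to 5, 0, 0 and 14 counts in the PTH samples (adjusted p = 0.00143).

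The HES, HEY and BHLHE40 group are bHLH repressors, several of them Notch targets, and 8 of the 12 were tested. Of these, 4 rose and 2 fell, with a median log2 fold change of 0.50. Bhlhe40, a stress- and clock-related repressor, rose from 22.9, 27.9, 27.8 and 32.98 CPM to 297.8, 236.7, 247.1 and 283.7 CPM (log2 fold change 3.26, edgeR adjusted p = 5.69e-10). With PTH its mean of 266.3 CPM was close to that of Id3, a gene that far exceeded it in the vehicle samples. This holds for CPM only, since the 2 genes were not scaled by length here. Hey1 rose from 6.72 to 16.5 CPM (1.30 on the log2 scale, adjusted p = 7.16e-05). Its relative Hey2 fell from 1.64 to 0.189 CPM (-3.10, adjusted p = 5.86e-05) and Hes6 from 13.6 to 6.41 CPM (-1.08, adjusted p = 0.000144).

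BMP signalling is the classic inducer of ID genes. Of the 10 BMP ligand genes, all tested, 4 rose and 5 fell, with a median log2 fold change of -0.60. Bmp4, a ligand with roles in skeletal patterning and bone formation, fell from 101.2, 104.1, 102.8 and 94.2 CPM to 18.2, 13.9, 19.0 and 18.1 CPM, with a log2 fold change of -2.54 (edgeR, adjusted p = 8.26e-10). Bmp8a fell from 7.22 to 2.70 CPM (-1.41, adjusted p = 0.000221). Bmp7 rose from 1.77 to 5.44 CPM (1.62, adjusted p = 0.0002), and Gdf5 from 0.212 to 0.963 CPM (2.16, adjusted p = 0.0109), on 0 to 15 counts per vehicle sample.

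Of the 11 BMP receptor and SMAD genes, 2 rose and 6 fell, with a median log2 fold change of -0.22. SMADs 1, 5 and 9 carry the BMP signal from receptor to nucleus. Smad1 rose from 26.7 to 42.3 CPM (0.67, edgeR adjusted p = 0.00065) and Smad5 from 92.6 to 114.4 CPM (0.31, adjusted p = 0.00151), while Smad9 fell from 11.1 to 5.39 CPM (-1.04, adjusted p = 0.00064). Acvr2a, a type II receptor, fell from 88.4 to 33.6 CPM (-1.40, adjusted p = 2.02e-09).

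Among 9 tested genes of 10 secreted BMP antagonists, 3 rose and 1 fell, with a median of 0.09. Grem1, or gremlin, rose from 29.0 to 122 CPM (2.07, edgeR adjusted p = 4.29e-08) and Fst, or follistatin, from 169 to 244.5 CPM (0.53, adjusted p = 4.56e-05), and Bmper fell from 38.3 to 31.2 CPM (-0.30, adjusted p = 0.00727). Other targets and feedback genes of the pathway also moved both ways, with 5 of 8 higher and 2 lower and a median of 0.40. Msx2, a homeobox gene of the skull, rose from 21.9 to 34.4 CPM (0.66, adjusted p = 0.000144). Dlx5, another homeobox gene of osteoblasts, fell from 17.1 to 9.02 CPM (-0.92, adjusted p = 3.08e-05), and Smurf1, a ubiquitin ligase for SMADs, from 46.3 to 38.2 CPM (-0.28, adjusted p = 0.0101).

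**Figure D5:**
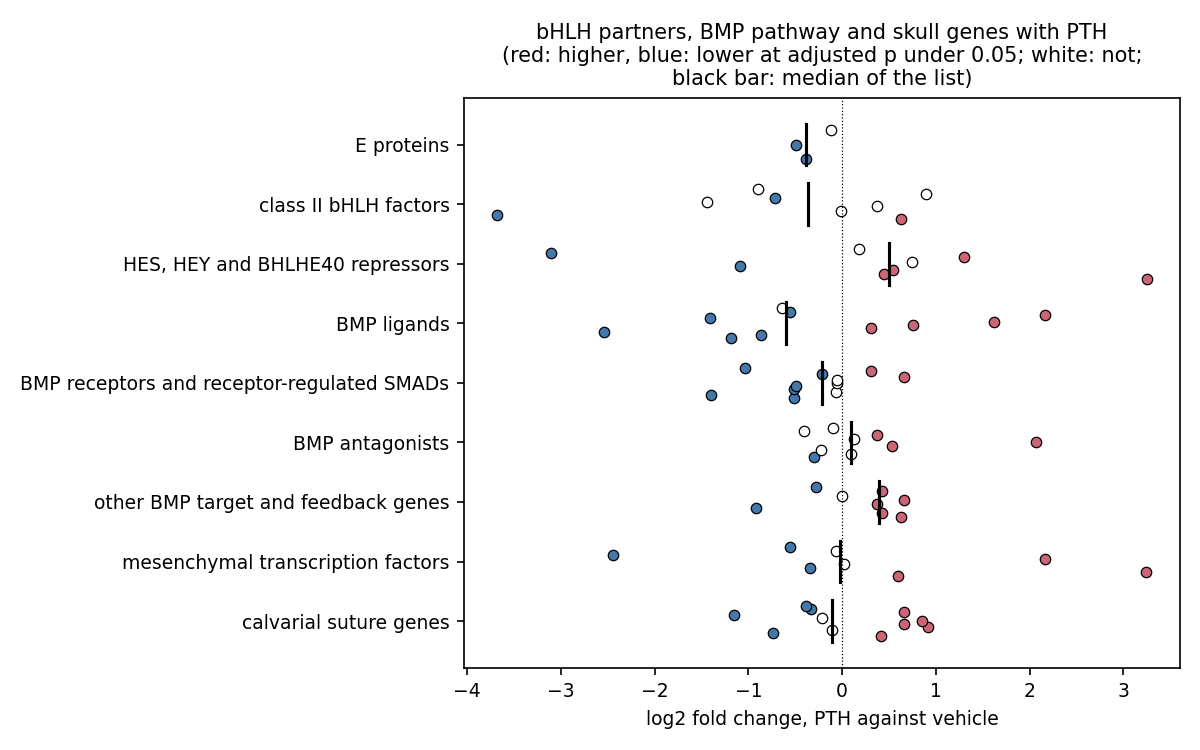
Log2 fold change of PTH against vehicle (horizontal axis) for every tested gene of 9 lists, 1 point per gene, red where higher and blue where lower at an adjusted p under 0.05, white otherwise, with the median as a black bar. Every list but the E proteins has genes called in both directions, and the medians run from -0.60 (BMP ligands) to 0.50 (HES, HEY and BHLHE40 repressors).

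TWIST genes work beside other transcription factors of mesenchymal cells, and of the 8 tested of 9 such genes, 3 rose and 3 fell. The 2 SNAIL relatives diverged, as the TWIST genes did. Snai1 rose from 64.2 to 288.5 CPM (2.17 on the log2 scale, edgeR adjusted p = 2.74e-09) and Snai2 fell from 64.9 to 11.9 CPM (-2.45, adjusted p = 4.31e-10). Foxc2, a forkhead factor of mesenchyme, rose from 10.4 to 97.7 CPM (3.24, adjusted p = 1.89e-10), and Zeb2, an E-box repressor, fell from 143.6 to 97.7 CPM (-0.56, adjusted p = 0.000159).

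Among the 11 genes of skull suture biology, which include Tcf12, Msx2 and Runx2, 5 rose and 4 fell, with a median of -0.11. Epha4, an ephrin receptor of the suture boundary, rose from 44.7 to 84.0 CPM (0.91, edgeR adjusted p = 3.09e-06), and its ligand gene Efna4 fell from 10.2 to 6.12 CPM (-0.74, adjusted p = 0.000226). Fgfr2, whose activating mutations fuse sutures early, rose from 278.4 to 504.3 CPM (0.86, adjusted p = 2.83e-05), and the Notch ligand gene Jag1 fell from 61.5 to 27.6 CPM (-1.16, adjusted p = 3.09e-07). Runx2 itself, the factor held back by TWIST proteins, was also lower with PTH (-0.33 on the log2 scale, edgeR adjusted p = 0.00362).

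Cell type markers were summed in each sample. Of 12 osteoblast markers, 3 fell (Runx2, Sp7 and Dmp1) and the other 9 did not pass the test. The sum of the list overlapped between the treatments, but it was mostly Col1a1, Col1a2 and Sparc. It therefore cannot show changes such as that of Sp7, which fell from 103 to 30.1 CPM. Of 10 macrophage markers, 3 rose (Lyz2, Cd14 and Tyrobp) and the sum, mostly Lyz2, was 1019 to 1655 CPM with vehicle and 1601 to 2061 CPM with PTH. Of 8 adipocyte markers, of which 7 were tested, Pparg fell and the other 6 did not pass, and the sum, mostly Lpl, was 419.6 to 486.9 and 436.8 to 497.4 CPM. Of 6 chondrocyte markers, of which 5 were tested, Col2a1 and Acan rose, and Sox9, Col9a1 and Comp did not pass. Their sum, with Col2a1 as its largest part, was 422.3 to 481.4 CPM with vehicle and 493.8 to 621.9 CPM with PTH.

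Endothelial markers summed to 23.0 to 24.3 CPM with vehicle and 30.0 to 50.1 CPM with PTH, most of it Erg, with means of 16.8 and 33.5 CPM. In that list of 8, Emcn was at 0 in every sample, and Pecam1, Cdh5 and Esam had means under 1 CPM in both treatments and did not pass the test, while Kdr and Erg rose and Tek fell. Skeletal muscle markers summed to at most 9.58 CPM, with Myf5 at 0, and of the 4 tested of 8, Myh3 rose and Acta1 fell. ID genes are also expressed in endothelial cells, macrophages and cartilage, and the part of these cell types in the members' changes was not tested.

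The genes whose log2 CPM followed each member most closely over the 8 samples were found in a set of 14056 genes whose mean reached 1 CPM. Since the samples fall into 2 treatment clusters, these correlations mainly restate the difference between treatments and carry no p. For Id1 they were Phf7 and Zfp414 (Pearson r = 0.996 and 0.995), for Twist1 Erlin2 and Gabpa (0.997 and 0.996) and for Id2 Eif3m and Rfk (0.988 and 0.981). For Id3 they were Gprc5a and Pvr (both 0.999), whose own log2 fold changes of 4.92 and 2.69 were far above the 0.92 of Id3. Twist2 was most like Gm5424 and Sgk1 (both 0.998). An r above 0.9 was reached by 1789 genes for Id3, 1679 for Twist2, 1553 for Id1, 1212 for Twist1 and 404 for Id2. For Id4, the member that did not pass the test, it was reached by 103 genes, led by Sardh and Kdelc1 (0.994 and 0.978).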

How the data were processed

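The authors aligned reads of poly(A) libraries to GRCm38 (mm10) with HISAT2, assembled transcripts with StringTie and used DESeq2. They deposited a table of counts per gene, derived from transcript coverage and not normalized. The annotation version, strand and read length settings are not given in the sources used here. Of 47706 genes, 16736 passed edgeR's filterByExpr (minimum count 10, minimum total 15). PTH was compared with vehicle in all 8 samples with edgeR 4.0.16 (R 4.3.3): TMM normalization and the quasi-likelihood F-test, with a two-sided Benjamini-Hochberg adjusted p under 0.05 over all genes tested and no minimum fold change. CPM used TMM-normalized library sizes. Exact permutation tests ran in SciPy 1.17.1 on log2(CPM + 0.1), over 70 assignments of samples. Log2 CPM for principal components and likeness added a prior count of 2.

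The members and gene lists were chosen with earlier results of these data known. The text names the members, the E protein genes, the 2 largest called changes each way per pathway list, the 2 closest genes per member and Tnfsf11, and marker genes, Runx2 and overlapping genes besides. Alternatives were DESeq2 1.42.0, its size factors in edgeR, no filter, a replicate block, each sample left out, halved counts, in case of another read length setting, symbols merged by summing, another pseudocount and other lengths. The steps were tested on simulated data. The total counts of 33605610 to 56090654 per sample limit genes with few counts.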

Additional observations from a re-analysis of the deposited data

Results flagged for a closer look

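Among the 4 PTH samples, the Id2 level of PTH sample 3 stood apart from the others, at 80.3 CPM against 71.8 to 72.9 CPM. Its gap to the nearest sample was 0.877 of the range of the group, above Dixon's critical value for 4 samples. It was 1 of 26 groups of values examined in this way, and chance alone marks about 1 group in 20. Without PTH sample 3 the log2 fold change of Id2 was 0.20 (edgeR, adjusted p = 0.0332).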

How the results depend on the processing

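In every edgeR and DESeq2 alternative run, and without each sample in turn, Id2, Id3 and Twist2 were upregulated, Id1 and Twist1 were downregulated and Id4 did not pass. The Id2 call came nearest the threshold with no filter on low counts (log2 fold change 0.21, edgeR adjusted p = 0.0418). Without each sample in turn the log2 fold change ranged from -1.46 to -1.29 for Id1, 0.20 to 0.27 for Id2 (adjusted p from 0.00624 to 0.0358), 0.89 to 0.95 for Id3, -0.14 to -0.05 for Id4 (adjusted p from 0.181 to 0.594), -0.52 to -0.41 for Twist1 and 0.98 to 1.07 for Twist2. The ratio tests then reach no lower than an exact permutation p of 0.0571, and the shift of the log2 ratio lay between -2.37 and -2.18 for Id1/Id3 and between -1.51 and -1.41 for Twist1/Twist2. A pseudocount of 1 CPM left the direction and p of each pair as they were. Genes called up and down over the whole table numbered 4109 and 3784 with DESeq2, 3509 and 3758 with no filter, and 3412 to 4119 and 3259 to 3955 without single samples. No scaling moved the median of all genes by more than 0.0356 on the log2 scale.

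The sample numbers did not pair the samples: deviations of same-numbered samples correlated at -0.038, -0.033, -0.041 and 0.027, and 1 of the 8 samples correlated best with its own number. With the replicate block 3571 genes were called up and 3432 down, the members' calls stayed as they were, and the log2 fold changes were -1.38 for Id1, 0.24 for Id2, 0.92 for Id3, -0.12 for Id4, -0.47 for Twist1 and 1.0 for Twist2.

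Of the 51 named genes, Eif3m lost its call with no filter (adjusted p = 0.0871) and without PTH sample 3, vehicle sample 1 or vehicle sample 2 (0.0653 to 0.07), and Kdelc1 gained one without PTH sample 1 (log2 fold change -0.28, adjusted p = 0.0199). A second BMP antagonist gene fell without PTH sample 1. The shares of each family per kilobase also moved: with the longest coding transcript, an alternative chosen after seeing the data, Id2 held 19.6% and 15.3% with vehicle and PTH, Id4 4.02% and 2.45%, and Twist2 3.92% and 10.1%, because the lengths differ. Depth limits the genes with few counts, such as Bhlha15, whose log2 fold change ran from -5.15 to -3.30 without single samples.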
